A study of Homo sapiens with 3 samples.

Results

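The genes described here are enzymes and regulators of the amino acid response that ATF4 controls: PHGDH and PSAT1 of serine synthesis, SHMT2, MTHFD2 and ALDH1L2 of mitochondrial one-carbon metabolism, and CHAC1, a glutathione-degrading enzyme. They were chosen by symbol from a list of 10, of which 6 were measured, among 15466 gene symbols in all. ATF4, DDIT3, TRIB3 and ASNS, the other genes of that list, were not analysed here. The cells were 22Rv1, an established human prostate cancer cell line, given 20 μg of plasmid with MLPH transcript V4 or MLPH transcript V1 and collected after 48 h, and another group received the empty vector. The MLPH product, melanophilin, is an adaptor between the small GTPase Rab27a and the motor myosin Va. Each group had 1 RNA-seq library made from poly(A) RNA. The V4 and V1 libraries were compared, and the empty-vector sample was not analysed here, so no value below says whether either transcript moved a gene away from its level without MLPH.

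ATF4 is a transcription factor whose mRNA is translated preferentially when the initiation factor eIF2 is phosphorylated, as in amino acid shortage, endoplasmic reticulum stress or mitochondrial stress. Its targets include genes for amino acid synthesis and uptake, for loading tRNAs, and for the mitochondrial folate pathway. In that pathway serine, made from a glycolytic intermediate by PHGDH, PSAT1 and a phosphatase, gives a one-carbon unit to tetrahydrofolate, which MTHFD2 and then other enzymes oxidise toward formate or carbon dioxide.

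Many ATF4 targets carry a C/EBP-ATF response element, for which the letters TGATGNAA were searched on both strands, together with the CCAAT box. RefSeq promoter windows on GRCh38.p14, of 250 bases before and 50 after the start, were found for 4 of the 6 genes. TGATGNAA was in 1 of those 4, against 3.62% of all 35116 windows. CCAAT was in all 4, against 34.6% of all windows. The bases before the start are shown for MTHFD2 and CHAC1, which lay on opposite sides in the comparison below. The MTHFD2 window is chr2:74198365-74198614 and the CHAC1 window chr15:40953221-40953470, both on the plus strand. Capitals mark matches on either strand, and the first capitals of CHAC1 are the reverse complement of TGATGCAA, starting 209 bases before the start. The other capitals mark CCAAT or its reverse complement, which did not overlap TGATGCAA.
MTHFD2: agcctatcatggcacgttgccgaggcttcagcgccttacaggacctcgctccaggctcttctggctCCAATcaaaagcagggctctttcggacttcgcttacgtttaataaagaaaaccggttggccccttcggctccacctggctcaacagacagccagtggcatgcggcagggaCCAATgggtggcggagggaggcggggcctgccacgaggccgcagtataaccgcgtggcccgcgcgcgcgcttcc
CHAC1: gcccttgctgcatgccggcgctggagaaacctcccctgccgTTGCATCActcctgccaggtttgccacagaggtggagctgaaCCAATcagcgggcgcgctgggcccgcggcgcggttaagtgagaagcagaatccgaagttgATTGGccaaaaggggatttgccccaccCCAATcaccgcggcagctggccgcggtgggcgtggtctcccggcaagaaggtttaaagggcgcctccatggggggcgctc

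The total was 9609381 counts in the V4 library and 9253399 in the V1 library, and 8823 genes with a mean of at least 1 CPM (counts scaled to library size) were kept. MLPH itself had 7773 counts in the V4 library and 7219 in the V1 library. Of the markers of luminal prostate epithelium, all 6 measured had counts in both libraries, with KRT8 at 1636 counts in the V4 library and 2085 in the V1 library, but KLK2 was at 13 counts in the V4 library and 8 in the V1 library, and TMPRSS2 at 2 in V4 and 1 in V1. The 4 measured fibroblast markers summed to 5.06 CPM in the V4 library and 165 CPM in the V1 library. COL1A2 (V4 4 counts, V1 976 counts) and COL3A1 (V4 0 counts, V1 526 counts) made up most of the V1 sum. LUM (V4 44 counts, V1 33 counts) had a ratio of 1.32, with an interval from 0.819 to 2.13 that includes 1. It made up most of the V4 sum, at 4.63 CPM. PDGFRB had 0 counts in V4 and 6 in V1. The 4 leukocyte markers summed to 6.85 CPM in V4 and 9.93 CPM in V1, with PTPRC and CD3E at 0 in both, and the 3 endothelial markers to 1.16 CPM in V4 and 0.107 CPM in V1, with CDH5 at 0 in both. The part of the fibroblast markers in the ratios below was not tested. With 1 library per group there was no replicate check and no test across samples. Each ratio compares these libraries, not the conditions, and in bulk RNA fewer cells of a type and less RNA per cell cannot be told apart.

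Of the 6 genes, ALDH1L2, MTHFD2 and SHMT2 were higher in the V4 library and PHGDH and CHAC1 lower, and all the gaps were small. ALDH1L2, which oxidises formyl-tetrahydrofolate in mitochondria, stood farthest apart at 1.40-fold higher. MTHFD2 and SHMT2 were 1.17-fold and 1.14-fold higher, PSAT1 had nearly the same level, PHGDH was 1.09-fold lower and CHAC1 1.17-fold lower. Genes were counted as called at a ratio of at least 1.5 in either direction, with a prior count of 2 and a 95% exact (Clopper-Pearson) interval that excluded 1. By that rule 0 of the 6 genes were called higher and 0 lower, where 5.51% of all kept genes were called higher and 7.1% lower. At a lower line of 0.32 on the log2 scale, with the same condition on the interval, 1 of 6 was called higher (ALDH1L2) and 0 lower, against 11.4% of all kept genes called higher and 12.6% lower. Of the 2763 kept genes with at least 900 counts over both libraries, as all 6 had, 9.01% were called higher and 8.11% lower at that line.

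PHGDH, phosphoglycerate dehydrogenase, catalyses the first step of serine synthesis. It had 24063 counts in the V4 library, or 2534 CPM after scaling by TMM (trimmed mean of M-values), and 25772 counts, or 2752 CPM, in the V1 library. The V4 library was the lower, by 1.09-fold (interval 1.07 to 1.11). PSAT1, the aminotransferase of the next step, had 889 counts (93.6 CPM) in the V4 library and 855 counts (91.3 CPM) in the V1 library. Its ratio was 1.03, with an interval from 0.933 to 1.13 that includes 1, so a difference was not detectable at this depth. GENCODE v29 names 4 pseudogenes of PSAT1, and the sources used here do not say how reads common to such copies were counted.

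SHMT2, mitochondrial serine hydroxymethyltransferase, moves the one-carbon unit of serine to tetrahydrofolate and releases glycine. It had 554 counts (58.3 CPM) in the V4 library and 480 counts (51.3 CPM) in the V1 library. The V4 library was the higher by 1.14-fold, and the interval (1.01 to 1.29) came close to 1. MTHFD2, the mitochondrial dehydrogenase and cyclohydrolase that handles the resulting methylene-tetrahydrofolate, had 14483 counts (1525 CPM) in the V4 library and 12238 counts (1307 CPM) in the V1 library, a ratio of 1.17 (interval 1.14 to 1.20). With the trend of ratio on GC content over all genes removed, the log2 ratio of MTHFD2 was 0.11, against 0.22 without. With the trend on transcript length removed it was 0.17. GENCODE v29 names 7 pseudogenes of MTHFD2, so its counts are uncertain in the same way as those of PSAT1.

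ALDH1L2 had 7251 counts (763.7 CPM) in the V4 library and 5101 counts (544.7 CPM) in the V1 library, a ratio of 1.40 (interval 1.35 to 1.45). Among the 336 genes with a mean of at least 500 CPM, a limit chosen after the values were seen, 4 had a higher V4 over V1 ratio. Among all kept genes, where low counts spread the ratios more widely, 10.5% did. ALDH1L2, SHMT2 and MTHFD2 each overlap genes on the opposite strand in GENCODE v29, and the sources used here do not give the strand setting of the counting. C12orf45, which overlaps ALDH1L2, had 648 counts in the V4 library and 721 in the V1 library. NDUFA4L2, one of those that overlap SHMT2, had 30 counts in the V4 library and 32 in the V1 library, and SLC4A5, one of those that overlap MTHFD2, had 2 in V4 and 0 in V1. The ALDH1L2 transcript was also the longest of the 6, at 7547 bases. With the trend of ratio on transcript length over all genes removed, the log2 ratio of ALDH1L2 was 0.31, under the 0.32 line, against 0.49 without that step. With the trend on GC content removed it was 0.38, still beyond the line.

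CHAC1 breaks down glutathione and is a late target of the ATF4 and CHOP branch. It had 786 counts (82.8 CPM) in the V4 library and 904 counts (96.5 CPM) in the V1 library. The V4 library was the lower by 1.17-fold (interval 1.06 to 1.28). CHAC1 had the highest GC content of the 6 (62.6% of its longest transcript), and with the trend on GC content removed its log2 ratio was -0.03, against -0.22 without that step.

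**Figure D1:**
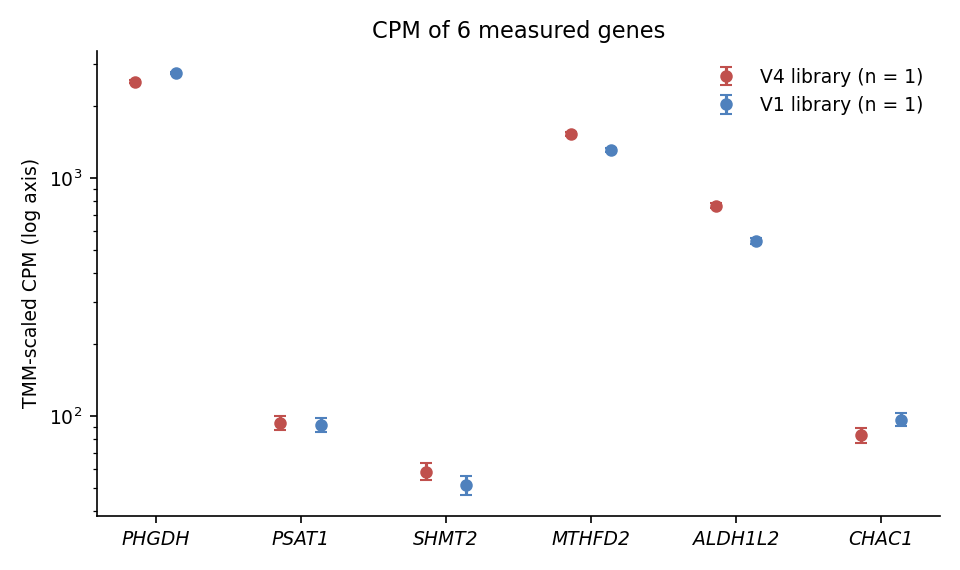
TMM-scaled CPM (log axis) of the 6 measured genes in the V4 library (red, left) and the V1 library (blue, right), 1 library each, with 95% Poisson intervals of counting error. ALDH1L2, MTHFD2 and SHMT2 lie higher in the V4 library and PHGDH and CHAC1 lower, and the 2 points of PSAT1 overlap.

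**Figure D2:**
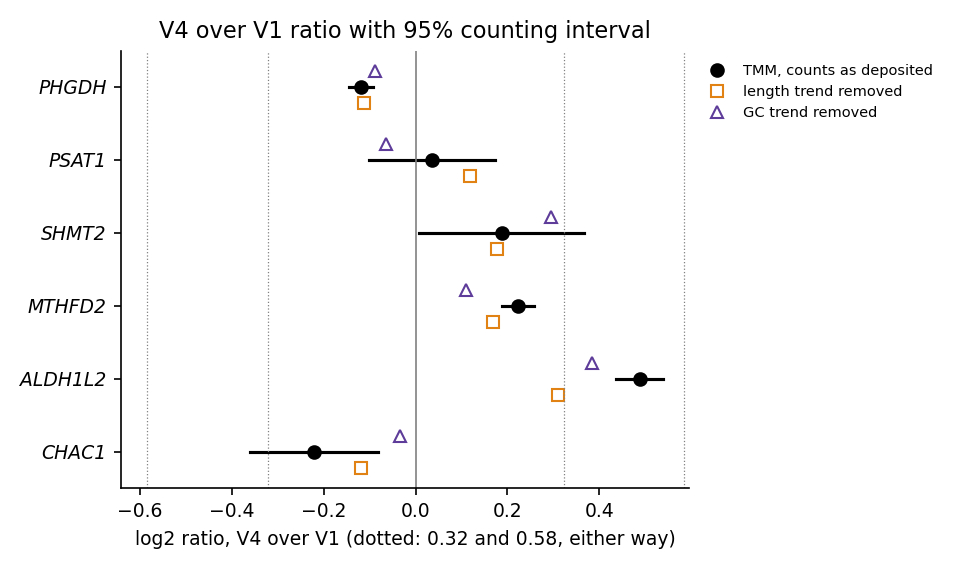
Log2 ratio of the V4 library over the V1 library for each of the 6 genes (black, with the 95% counting interval), and with the trend on transcript length (squares) or GC content (triangles) removed. Dotted lines mark log2 ratios of 0.32 and 0.58 (1.5-fold) in either direction. ALDH1L2 is the only gene with a point beyond 0.32: its black point lies at 0.49 and its triangle at 0.38, while its square lies at 0.31.

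Intervals cover counting error only, and at these depths they excluded 1 for many genes. Of the 6 genes, 3 had an interval wholly above 1 and 2 wholly below, where 19.9% of all kept genes lay above and 21% below. Of the 2763 kept genes with at least 900 counts, 32.5% had an interval wholly above 1 and 31.5% wholly below. Such an interval is therefore common among well-counted genes in this pair of libraries, and the count of 5 of 6 is read only as a description.

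**Figure D3:**
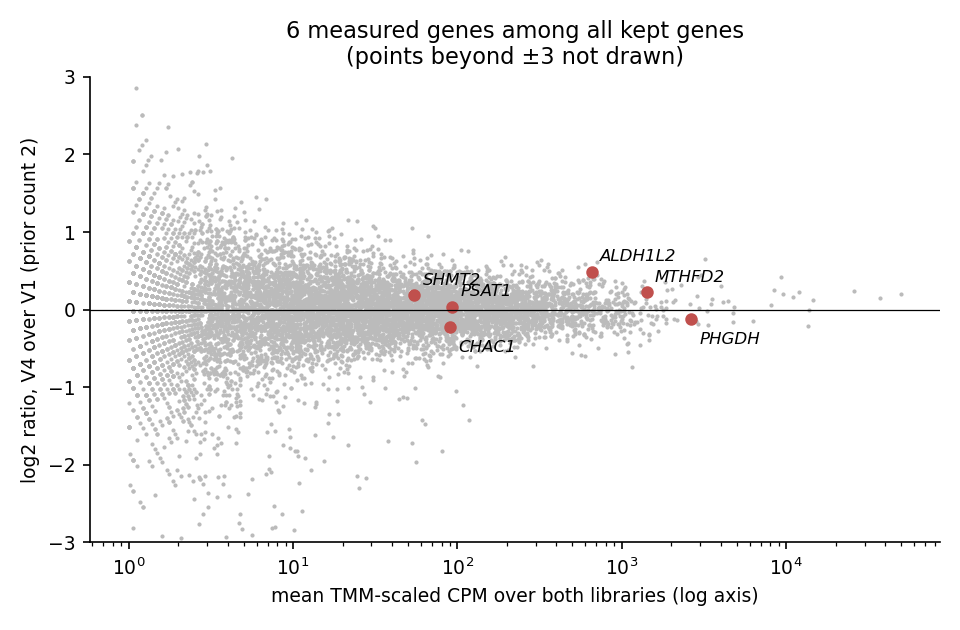
Log2 ratio of the V4 library over the V1 library (prior count 2) against the mean TMM-scaled CPM (log axis) for the 8823 kept genes (grey) and the 6 genes (red); 73 genes beyond 3 on the log2 scale in either direction are not drawn. ALDH1L2 lies near the upper edge of the genes at its level, and the other 5 lie within the bulk.

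The balance between the 6 genes within a library does not depend on the scaling. The trends on transcript length and GC content were not removed from the count ratios and sums below. There were 0.301 ALDH1L2 counts per PHGDH count in the V4 library and 0.198 in the V1 library, a ratio of 1.52 (interval 1.46 to 1.58). For MTHFD2 over CHAC1 the values were 18.4 in the V4 library and 13.5 in the V1 library, a ratio of 1.36 (interval 1.23 to 1.5). With the length trend removed, the V4 over V1 log2 ratios of ALDH1L2 and PHGDH were 0.31 and -0.11, against 0.49 and -0.12 without. With the GC trend removed, those of MTHFD2 and CHAC1 were 0.11 and -0.03, against 0.22 and -0.22 without. SHMT2 and MTHFD2 kept closer to each other. There were 0.0383 SHMT2 counts per MTHFD2 count in the V4 library and 0.0392 in the V1 library (ratio 0.98, interval 0.86 to 1.1). With the GC trend removed, their log2 ratios were 0.30 and 0.11. Of the 15 pairs, 12 had an interval that excluded 1. The pairs share the same 6 genes, and no share over pairs of other genes was computed. This count is therefore read only as a description. PHGDH over CHAC1 (ratio 1.07, interval 0.97 to 1.19) and PSAT1 over SHMT2 (ratio 0.90, interval 0.77 to 1.05) also had intervals that included 1. Summed, the 3 mitochondrial one-carbon genes had 22288 counts in the V4 library and 17819 in the V1 library (ratio 1.23, interval 1.21 to 1.26), a sum that MTHFD2 and ALDH1L2 dominate. PHGDH and PSAT1 together had 24952 counts in the V4 library and 26627 in the V1 library (ratio 0.924, interval 0.91 to 0.94), nearly all from PHGDH. The share of all counts taken by the 6 genes was 0.50% in the V4 library and 0.49% in the V1 library.

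Per kilobase of the longest GENCODE v29 transcript, the order of levels was PHGDH, MTHFD2 and ALDH1L2 at the top and SHMT2 at the bottom in both libraries. PHGDH had 797 CPM per kb in the V4 library and 865 in the V1 library, MTHFD2 342 in V4 and 293 in V1, ALDH1L2 101 in V4 and 72.2 in V1, and SHMT2 17 in V4 and 15 in V1. CHAC1 (44.8 CPM per kb in V4, 52.2 in V1) and PSAT1 (42.8 in V4, 41.7 in V1) were neighbours. Their intervals overlapped in the V4 library (41.7 to 48.0 for CHAC1, 40.0 to 45.7 for PSAT1) and did not overlap in the V1 library (48.9 to 55.7 for CHAC1, 39.0 to 44.6 for PSAT1). The sources used here do not name the transcripts that the authors counted, so these levels hold only for that choice of length.

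Other genes of serine, glycine, proline and aspartate metabolism had log2 ratios between -0.77 and 0.18. Both ends came from low counts, GLS2 (V4 17 counts, V1 30 counts) and PYCRL (V4 21 counts, V1 18 counts), with intervals that included 1. Of 20 listed, 14 were measured and 11 kept, and 0 were called at the 0.32 line or at 1.5-fold in either direction. Their median log2 ratio was -0.05 beside -0.00 over all kept genes. It was 0.11 with the GC trend removed and 0.01 with the length trend removed, so its sign was not stable. GOT1, the cytosolic aspartate aminotransferase and the gene of the list with the most counts, had 5913 counts in the V4 library and 5349 in the V1 library, a ratio of 1.09 (interval 1.05 to 1.13). PYCR1, which makes proline in mitochondria and is a known ATF4 target, had 672 counts in the V4 library and 791 in the V1 library (ratio 0.838, interval 0.755 to 0.930). The folate and methionine cycle list had 25 of 28 genes measured and 20 kept, 0 called at 1.5-fold and a median of 0.02. DLD, with the most counts there, had 6358 counts in the V4 library and 5644 in the V1 library (ratio 1.11, interval 1.07 to 1.15). MTHFD1, the cytosolic counterpart of MTHFD2 in the folate pathway, had 3833 counts in the V4 library and 3534 in the V1 library. Its ratio was 1.07 (interval 1.02 to 1.12), beside 1.17 (interval 1.14 to 1.20) for MTHFD2, with no trend removed from either. GGH, which trims the glutamate tail of folates, was called lower at the 0.32 line, with 592 counts in the V4 library and 752 in the V1 library (ratio 0.776, interval 0.696 to 0.866). On the same list, MTHFD2L, GCSH, AMT, GLDC and MTFMT had ratios of 1.03, 0.98, 0.99, 1.08 and 0.92, with intervals that included 1. MTHFD1L, ALDH1L1 and the mitochondrial folate carrier gene SLC25A32 had at most 11 counts in a library and were not kept.

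Amino acid transporter genes had the highest median of the 9 lists, 0.16, over 13 kept of 16 measured and 21 listed. SLC7A11, the cystine transporter gene and an ATF4 target, was called higher at 1.5-fold, with 1258 counts in the V4 library and 728 in the V1 library (ratio 1.70, interval 1.55 to 1.87). At the 0.32 line SLC1A4, a transporter of serine and other small neutral amino acids, was also called higher, with 844 counts in the V4 library and 628 in the V1 library (ratio 1.33, interval 1.19 to 1.47). SLC38A2, a starvation-induced neutral amino acid transporter, was the last of the 3 of 13 called higher at that line. It had 3674 counts in the V4 library and 2831 in the V1 library (ratio 1.28, interval 1.22 to 1.34). Over all kept genes, 11.4% were called higher at that line. The calls of SLC1A4 and SLC38A2 were not repeated with the length or GC trend removed. SLC3A2, the heavy chain that SLC7A11 pairs with and the gene with the most counts of the list, went the other way, with 4717 counts in the V4 library and 5662 in the V1 library (ratio 0.822, interval 0.790 to 0.854). SLC7A11 has a long transcript (9645 bases), and its log2 ratio was 0.52 with the length trend removed and 0.5801 with the GC trend removed, against 0.77 without. Both lie under the 1.5-fold line (0.5850), so the call was lost under either.

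Of 12 aminoacyl-tRNA synthetase genes listed as ATF4 targets, 11 were measured and 10 kept, and 0 were called at either line. Their median log2 ratio was 0.12, and intervals lay above 1 for 6 and below 1 for 1. With at least 900 counts there were 9 of them, again 6 above and 1 below, beside the 32.5% and 31.5% of all genes at that depth. EPRS, the glutamyl-prolyl enzyme and the gene with the most counts, had 42246 counts in the V4 library and 33885 in the V1 library (ratio 1.23, interval 1.21 to 1.247). AARS, the alanyl enzyme, had 3893 counts in the V4 library and 4171 in the V1 library (ratio 0.921, interval 0.881 to 0.962). The other 7 kept cytosolic synthetase genes had a median of -0.06, with 0 called at 1.5-fold. FARSA, with the most counts of them, had 7122 counts in the V4 library and 7752 in the V1 library (ratio 0.906, interval 0.877 to 0.936), and VARS was called lower at the 0.32 line, with 132 counts in the V4 library and 180 in the V1 library (ratio 0.723, interval 0.573 to 0.911).

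Other targets of ATF4 and CHOP went both ways. Of 37 listed, 26 were measured and 20 kept. Their median was -0.10, and at 1.5-fold 1 was called higher (SLC7A11, already given) and 0 lower. Over all kept genes, 5.51% were called higher and 7.1% lower at that fold. The gene with the most counts, GDF15, a secreted stress hormone, had 119328 counts in the V4 library and 136312 in the V1 library (ratio 0.863, interval 0.857 to 0.870). At the 0.32 line, 2 were called higher and 3 lower, against 11.4% and 12.6% of all kept genes. PCK2, the mitochondrial phosphoenolpyruvate carboxykinase, was higher with 385 counts in the V4 library and 300 in the V1 library (ratio 1.27, interval 1.09 to 1.48). Lower were EIF4EBP1, a repressor of cap-dependent translation (V4 4229 counts, V1 5257 counts, ratio 0.793), HMOX1, haem oxygenase (V4 12407 counts, V1 15322 counts, ratio 0.799), and CHAC2, a paralog of CHAC1 (V4 165 counts, V1 215 counts, ratio 0.757). PCK2, EIF4EBP1 and HMOX1 lay close to the 0.32 line, at log2 ratios of 0.34, -0.33 and -0.32. Those calls and that of CHAC2 were not repeated with the length or GC trend removed. ATF3 had 5 counts in the V4 library and 9 in the V1 library and was not kept.

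Upstream of ATF4, 17 of 20 eIF2 kinase, eIF2, eIF2B and phosphatase genes were measured, and all 17 were kept. Of these, 0 were called at 1.5-fold, and the median was 0.11. GCN1L1, the activator of the amino acid sensing kinase GCN2 and the gene with the most counts, had 13464 counts in the V4 library and 11337 in the V1 library (ratio 1.17, interval 1.14 to 1.20). EIF2AK4, which encodes GCN2 itself, had 74 counts in the V4 library and 68 in the V1 library, with an interval that included 1, and EIF2AK3, which encodes the kinase PERK, had 387 in V4 and 373 in V1, likewise. PPP1CA, a catalytic phosphatase subunit, was called lower at the 0.32 line (V4 379 counts, V1 550 counts, ratio 0.680, interval 0.595 to 0.776).

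The other branches of the unfolded protein response were read beside these genes, since endoplasmic reticulum stress also engages ATF4. Of 24 IRE1 and ATF6 branch genes, 19 were measured and 18 kept, with a median of -0.11, 1 called higher and 1 lower at 1.5-fold. Over all kept genes, 5.51% were called higher and 7.1% lower at that fold. SEL1L, an adaptor of the ubiquitin ligase for misfolded proteins, had 223 counts in the V4 library and 140 in the V1 library (ratio 1.57, interval 1.27 to 1.95). SDF2L1, a chaperone-associated protein of the endoplasmic reticulum, had 1675 counts in the V4 library and 2518 in the V1 library (ratio 0.656, interval 0.616 to 0.698). Neither was called at 1.5-fold with the length or the GC trend removed, with log2 ratios of 0.45 and 0.50 for SEL1L and -0.44 and -0.38 for SDF2L1. HSPA5, the main chaperone of the endoplasmic reticulum and the gene with the most counts over both libraries, had 42487 counts in the V4 library and 46982 in the V1 library (ratio 0.892, interval 0.880 to 0.904). Intervals lay above 1 for 2 and below 1 for 10 of the 14 genes with at least 900 counts. Among all genes at that depth, 32.5% lay above and 31.5% below. Mitochondrial chaperone and protease genes, listed with GDF15, had 10 of 12 measured and 9 kept. Their median was -0.02, and 0 were called at either line. After GDF15, given above, the mitochondrial HSP70 gene HSPA9 had 28967 counts in the V4 library and 25376 in the V1 library (ratio 1.13, interval 1.11 to 1.15).

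**Figure D4:**
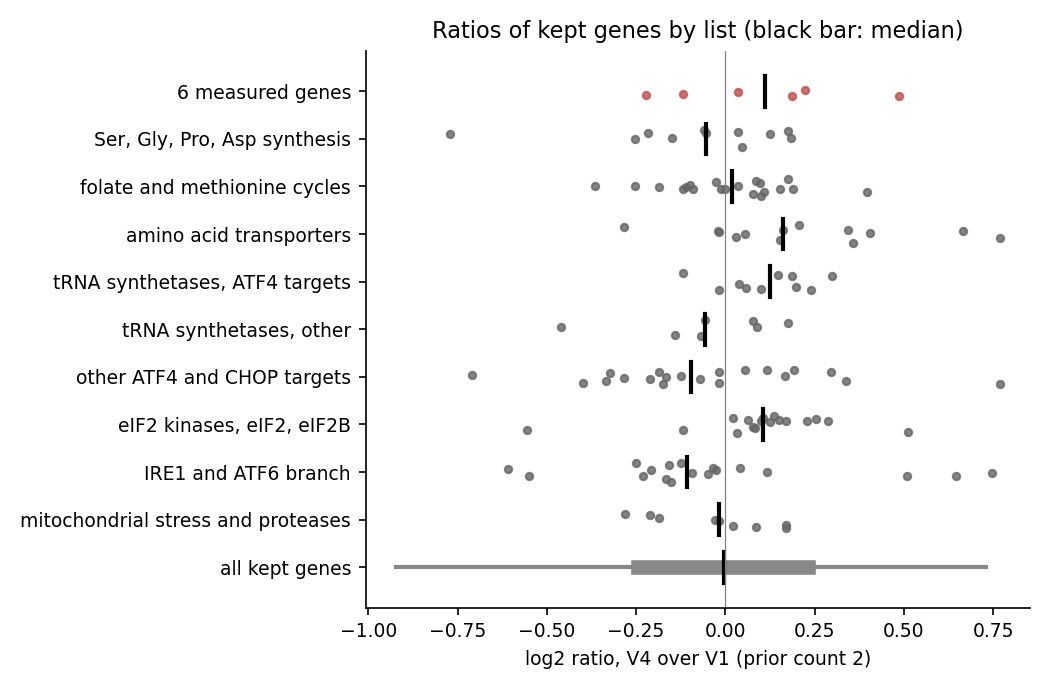
Log2 ratio of the V4 library over the V1 library (prior count 2) for each kept gene of the 6 and of 9 related lists; black bars are list medians, and for all kept genes the thick bar spans the 25th to 75th and the thin bar the 5th to 95th percentile. List medians lie between -0.11 and 0.16, inside the 25th to 75th percentile range of all kept genes, -0.24 to 0.23.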

How the data were processed

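Per the submitters' processing notes, reads were placed on build hg19, and the deposited values are whole-number counts of reads for each gene symbol. How they were aligned and counted, with which annotation and strand setting, and whether the technical replicate was added in, the sources used here do not say. A column was used only where its name fits 1 sample, which left out 1 column and with it the planned comparisons with the empty vector. Counts of 21 repeated symbols were summed, and 22 rows with a date for a symbol entered library totals only. Genes with a row of counts are called measured here, and were kept at a mean of at least 1 CPM (8823 genes). TMM scaling came from edgeR 4.0.16 (factors 0.988 for V4 and 1.01 for V1), the median-of-ratios alternative from DESeq2 1.42.0, and intervals from scipy 1.17.1. Intervals cover counting error alone, because copies made by amplification were not told apart. As an upper 95% limit alone, a count of 0 allows up to 3 counts, or 0.312 CPM in the V4 library and 0.324 in the V1 library without TMM scaling. The 95% Poisson interval with TMM scaling reaches 0.389 CPM in the V4 library and 0.394 in the V1 library. Length and GC content are those of the longest GENCODE v29 transcript (GRCh38), found for 91.5% of kept genes, and their trends came from lowess in statsmodels 0.14.6 with a span fraction of 0.3. The calling procedure was tested on simulated Poisson counts with changes of 2-fold or more. That test did not cover smaller changes, trends on length or GC content, or variation between libraries beyond counting error. The members and lists were chosen with earlier results of these data known. Named genes were the members, list genes called at 1.5-fold and the most abundant of each list. Others named from the lists were chosen after their values were seen. Values of 1 further marker gene are not reported here.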

Additional observations from a re-analysis of the deposited data

How the results depend on the processing

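With 1 library per group, no replicate could be left out, and no paired analysis was possible because each group has 1 sample. The 6 genes had 0 called higher and 0 lower at 1.5-fold under the 13 alternatives, except that at the 0.32 line (log2) 1 was called higher. Over all kept genes, 486 were called higher and 626 lower; the counts were 1010 and 1116 at the 0.32 line, 186 and 379 at 2-fold, and 138 and 162 at a mean of at least 10 CPM. Single log2 ratios spanned 0.31 to 0.49 for ALDH1L2, 0.11 to 0.23 for MTHFD2, 0.15 to 0.30 for SHMT2, -0.06 to 0.12 for PSAT1, -0.15 to -0.09 for PHGDH and -0.26 to -0.03 for CHAC1. The PSAT1 ratio changed sign only with the GC trend removed. At the 0.32 line, genes called higher were 3 for transporters, 2 for other ATF4 and CHOP targets and 2 for the IRE1 and ATF6 branch, and lower were 3 for the ATF4 and CHOP targets, 2 for the IRE1 and ATF6 branch, and 1 each for the folate cycle, the other synthetases and the eIF2 list. These list counts were not repeated with either trend removed. At 2-fold, and at 1.5-fold with either trend removed, the transporters, the ATF4 and CHOP targets and the IRE1 and ATF6 branch had 0 called in either direction. With no condition on the interval, 2 transporters and 2 IRE1 and ATF6 branch genes were higher, and 1 gene each of serine synthesis and of the ATF4 and CHOP targets was lower. Thinning to the smaller total gave 2 transporters higher and 1 eIF2 gene lower, and total-count scaling also gave 1 eIF2 gene lower. List medians shifted as well. With the GC trend removed, the median log2 ratio was 0.04 for the 6 genes, against 0.11 without that step. For serine, glycine, proline and aspartate metabolism it was 0.11, against -0.05. For the other ATF4 and CHOP targets it was -0.02, against -0.10. The transporters kept the highest median of the 9 lists, 0.19 with the GC trend removed and 0.11 with the length trend removed. The cause of these shifts was not tested.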
